A study of Mus musculus with 12 samples.

Results

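The residual state of psoriasis-like mouse skin treated with Banzhilian formula (BZLF) was described against normal skin, as the difference between the 4 IMQ + BZLF and the 4 control samples. All genes with a mean of at least 0.1 FPKM (a read level corrected for transcript length and for the mapped fragments in each sample) over the 12 samples of the study were members, which gave 15288 of the 18505 genes listed. The gene just inside this limit was Gm5977 at 0.1001 FPKM and the gene just outside was Adgb at 0.09991 FPKM, and 3217 genes lay below it. The skin came from the shaved backs of wild-type male BALB/c mice, 5 to 6 weeks old, on day 10. Control mice were coated with petroleum jelly, with no cover described. The IMQ + NS mice received imiquimod (IMQ) cream, a Toll-like receptor agonist that causes psoriasis-like inflammation, for 6 h a day and then a dressing with saline under gauze and film. The IMQ + BZLF mice received the same cream and then BZLF, a herbal prescription, under the same dressing. The methods do not say which BZLF dose the sequenced mice received, and none of the 3 groups received BZLF or the dressing without IMQ. The effects of IMQ, of the dressing and of BZLF therefore cannot be told apart in a comparison with control skin. In such whole-skin samples, fewer cells of a type and less RNA per cell cannot be told apart either.

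The epidermis is built of basal keratinocytes that divide and of upper layers that make keratins, small proline-rich proteins and late cornified envelope proteins for the outer barrier. In psoriasis-like skin, IL-17 acts on keratinocytes, which then make stress keratins, antimicrobial proteins and chemokines that attract neutrophils. Hair follicles pass through cycles of growth and rest, and during growth their matrix makes the keratins of the inner root sheath and of the hair shaft together with the keratin-associated proteins that crosslink them.

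A gene counted as changed in a comparison when its adjusted p was under 0.05 and its log2 difference exceeded 1 in size, from limma on log2(FPKM + 0.1) over all 15288 genes, with Benjamini-Hochberg adjustment. The added constant understates the differences of genes with low values. The genes called in IMQ + NS against control samples are referred to as lesion genes. A lesion gene stayed changed when it was called in the same direction in IMQ + BZLF against control samples, and it passed control when it was called in the opposite direction. It returned to control when the 95% confidence interval of its IMQ + BZLF minus control difference lay wholly within 2-fold, and it was not decided otherwise. The comparisons share the control samples, so the values for untreated and treated lesions are given side by side and are not independent.

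Control replicate 2 stood apart from the other controls. It correlated with them at 0.949 to 0.961 (Pearson, log2 scale, across genes), whereas the other 3 correlated with each other at 0.985 to 0.99. It correlated with the IMQ + BZLF samples at 0.896 to 0.914, against 0.821 to 0.859 for the other controls. Its inner root sheath keratins summed to 1826 FPKM, whereas those of the other controls summed to 20.1 to 55.8 FPKM. Seminal vesicle transcripts summed to 44.6 FPKM in control replicate 2 and to 43.0 FPKM in IMQ + BZLF replicate 2, and to at most 2.61 FPKM in the other 10 samples. Pancreas transcripts varied from 2.10 to 262 FPKM across samples of all 3 groups. The epidermal markers Krt5 and Krt14 and the fibroblast marker Col1a1 were at 405 FPKM or more in all 12 samples. The counts over all genes are therefore given with all samples and without control replicate 2, and counts of lists are for all samples unless stated.

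Many genes of IMQ + BZLF samples differed from normal skin. Of the 15288 genes, 1475 were higher (9.65%) and 1542 were lower (10.1%) than in control samples, or 3017 in all (19.7%). Without control replicate 2 the numbers were 1939 (12.7%) and 1811 (11.8%). These shares of all genes are the background for every count of list members given below. With all samples, 8849 genes had a confidence interval within 2-fold of control. Another 3422 genes were neither called nor held within 2-fold at this number of samples, although some may differ from control by less than 2-fold. The median difference over all genes was -0.02 on the log2 scale.

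Most lesion genes stayed changed after BZLF. Against the same controls, 1740 genes were raised (11.4%) and 1678 were lowered (11%) in IMQ + NS samples. Of the raised genes, 1335 (76.7%) stayed higher, 91 (5.23%) returned, 5 fell below control and 309 (17.8%) were not decided. Of the lowered genes, 1255 (74.8%) stayed lower, 37 (2.21%) returned, 0 passed above control and 386 (23%) were not decided. The count of 0 from limma was also 0 with unadjusted p-values and when any size of fold change was allowed. The class rules used these same differences, so the following medians follow in part from the rules and only describe the classes. The genes that stayed higher had a median difference from control of 1.81 in IMQ + BZLF and 1.82 in IMQ + NS samples. Those that stayed lower had medians of -1.49 and -1.72. The 91 raised genes that returned had a median of 0.10 in IMQ + BZLF and 1.41 in IMQ + NS samples. The raised genes not decided had a median of 0.84 in IMQ + BZLF samples (quartiles 0.595 and 0.974). The lowered genes not decided had a median of -0.86 there (quartiles -0.95 and -0.74). Not decided therefore includes many genes that lay near 2-fold from control.

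**Figure D1:**
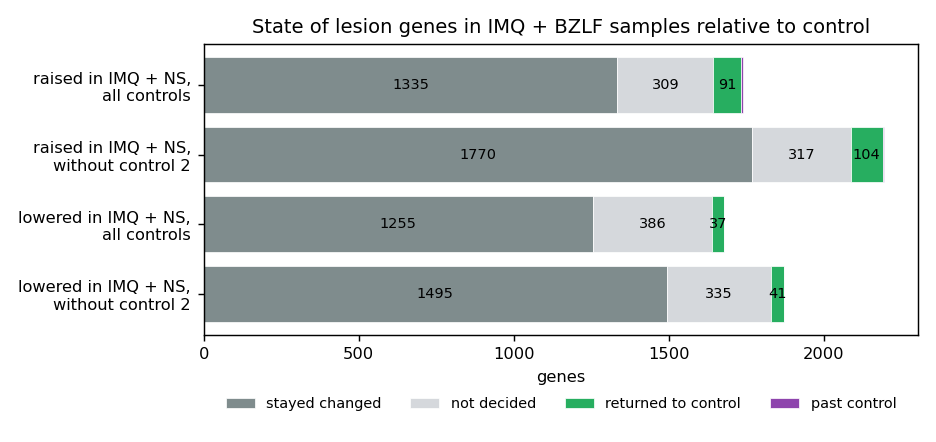
Number of lesion genes (horizontal axis) that stayed changed, were not decided, returned to control or passed control in IMQ + BZLF samples, for genes raised and lowered in IMQ + NS samples, with all controls and without control replicate 2. Of 1740 raised genes 1335 stayed higher, and of 2196 raised genes without control replicate 2 1770 did. The 5 genes that passed control form the thin last segment.

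The counts with and without control replicate 2 held largely the same genes. Without it, 1770 raised genes stayed higher and 1495 lowered genes stayed lower, of which 1318 and 1245 were also in the counts with all samples. Of the returned genes, 71 raised and 24 lowered ones returned in both fits, out of 91 and 37 with all samples and 104 and 41 without control replicate 2. All 5 genes that fell below control did so in both fits. The number of lowered genes that returned rested on single samples, and was 15 without IMQ + BZLF replicate 2 and 67 without IMQ + BZLF replicate 1.

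A direct test between treated and untreated lesions called 336 genes lower (2.2%) and 49 genes higher (0.321%) in IMQ + BZLF than IMQ + NS samples. Among the 1335 raised genes that stayed higher than control, 50 were also lower than in IMQ + NS samples and 3 were higher, which left 1282 for which no difference between the lesions was called. Among the 1255 lowered genes that stayed lower than control, 30 were higher than in IMQ + NS samples and 2 were lower. Of the raised genes that returned, 66 of 91 were lower than in IMQ + NS samples by this test. Of the lowered genes that returned, 2 of 37 were higher by it, so for the other 35 the difference between treated and untreated lesions was not called.

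The promoters of 5 genes that stand for these classes are shown as the 250 bases before the start that the RefSeq promoter table lists in the mouse build GRCm38.p6, read along the gene. For Krt77 and Il1b this start lies inside the gene's span as RefSeq lists it, so the windows overlap the ends of those spans. Krtap6-3 and Krt71 stayed higher, Krt77 stayed lower, S100a9 returned and Il1b fell below control. Capitals mark matches on either strand to the TATA box (TATAAA), the AP-1 motif (TGANTCA), a C/EBP motif (TTGCNNAA) or the TCF/LEF motif (CTTTGA), and none of the marked matches overlap.
Krtap6-3, chr16:89083774-89084023, plus strand: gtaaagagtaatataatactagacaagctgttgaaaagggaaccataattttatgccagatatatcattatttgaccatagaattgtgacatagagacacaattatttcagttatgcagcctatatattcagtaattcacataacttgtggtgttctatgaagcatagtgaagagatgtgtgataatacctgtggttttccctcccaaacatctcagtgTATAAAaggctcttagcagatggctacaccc
Krt71, chr15:101743098-101743347, minus strand: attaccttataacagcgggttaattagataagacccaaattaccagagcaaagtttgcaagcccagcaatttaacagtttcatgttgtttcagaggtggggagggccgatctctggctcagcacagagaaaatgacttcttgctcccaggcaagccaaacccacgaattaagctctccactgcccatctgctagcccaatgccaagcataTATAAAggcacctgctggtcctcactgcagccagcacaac
Krt77, chr15:101869706-101869955, minus strand: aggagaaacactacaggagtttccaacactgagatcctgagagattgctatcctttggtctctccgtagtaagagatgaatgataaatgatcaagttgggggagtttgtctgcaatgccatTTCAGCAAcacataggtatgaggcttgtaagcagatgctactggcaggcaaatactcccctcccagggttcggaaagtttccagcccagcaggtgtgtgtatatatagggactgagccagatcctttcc
S100a9, chr3:90695722-90695971, minus strand: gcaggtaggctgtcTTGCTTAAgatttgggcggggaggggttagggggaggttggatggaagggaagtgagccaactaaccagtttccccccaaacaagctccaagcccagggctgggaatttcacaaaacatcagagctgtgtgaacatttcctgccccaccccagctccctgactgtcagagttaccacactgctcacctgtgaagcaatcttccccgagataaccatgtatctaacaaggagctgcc
Il1b, chr2:129371140-129371389, minus strand: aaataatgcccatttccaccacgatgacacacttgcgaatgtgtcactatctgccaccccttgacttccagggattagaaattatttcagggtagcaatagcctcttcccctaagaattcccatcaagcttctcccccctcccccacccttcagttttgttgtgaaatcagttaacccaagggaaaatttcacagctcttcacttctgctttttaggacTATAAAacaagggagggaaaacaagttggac

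The TATA box was the marked motif in Krtap6-3, Krt71 and Il1b, and began 31, 40 and 31 bases before the start. Of 12074 tested genes with a listed promoter, 8.46% held TATAAA in this window, against 18.2% of the 1023 promoters of genes that stayed higher, 13.4% of the 964 of genes that stayed lower and 18.1% of the 72 of raised genes that returned. Among the keratin-associated proteins it was held by 40 of 50 promoters (80%), and these are part of the promoters of genes that stayed higher. The C/EBP motif was held by 8.12% of all promoters, by 8.6% of those of genes that stayed higher, by 12.8% of those of genes that stayed lower and by 15.3% of those of raised genes that returned. The AP-1 motif was held by 5.14%, 9.48%, 8.2% and 11.1%, and the TCF/LEF motif by 11.3%, 12.1%, 13.3% and 19.4%, of the same sets. Only 26 promoters belonged to lowered genes that returned, of which 2 held the TATA box, 0 the C/EBP motif, 1 the AP-1 motif and 1 the TCF/LEF motif. These are shares of letters in a window and were not tested.

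Genes of the growing hair follicle had the largest list medians among the genes that stayed higher. All 55 keratin-associated protein genes, all 16 hair shaft keratins and all 8 inner root sheath keratins were higher than in control samples, against 9.65% of all genes. Their median log2 differences were 8.82, 8.04 and 7.12 in IMQ + BZLF samples, and 8.51, 7.73 and 6.83 in IMQ + NS samples. Of these 79 genes, 0 were called different between IMQ + BZLF and IMQ + NS samples (limma), where 385 of all genes (2.52%) were. At an unadjusted p under 0.05, 19 of them were higher in IMQ + BZLF samples, as were 1217 of all 15288 genes. Of the keratin-associated protein genes, 23 lie on chromosome 11 and 23 on chromosome 16, and their reads may be shared among near-identical copies.

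Krtap6-3, a glycine and tyrosine rich keratin-associated protein gene at chr16:89084024-89084534, was at 0.245, 0.147, 0.2001 and 0.101 FPKM in control replicates 1 to 4 and at 238, 343, 306 and 182 FPKM in IMQ + BZLF replicates 1 to 4. The groups were far apart, with a log2 difference of 9.92 (standard error 0.23, adjusted p = 1.22e-08, limma), and IMQ + NS samples were at 258, 204, 183 and 158 FPKM. By the largest differences, Krtap6-3 was joined by Gm10100, Krtap9-5, Krtap19-1, Gm11565, Krtap19-5, Krtap19-2, Gm10228, Gm41515 and Krtap19-9b, at 9.41 to 9.95. Krt34, a keratin of the hair shaft, was at 3.72, 5.59, 1.62 and 1.65 FPKM in control and 1573, 1291, 1119 and 1105 FPKM in IMQ + BZLF samples, a difference of 8.79 (adjusted p = 6.76e-07). In Krtap6-3 control replicate 2 lay among the other controls, and in Krt34 it was the highest control but far below every IMQ + BZLF sample.

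The inner root sheath keratins differed from this in control replicate 2. Krt71, which lies at chr15:101733949-101743097 and forms filaments of the sheath that moulds the growing hair, was at 14.6, 638, 6.36 and 5.04 FPKM in control, 3351, 2799, 2739 and 3472 FPKM in IMQ + NS and 4745, 3638, 3296 and 3396 FPKM in IMQ + BZLF samples. Control replicate 2 was between the other controls and the lesions, and every IMQ + BZLF sample lay above it. The difference was 7.30 with all samples (standard error 1.35, adjusted p = 0.00228) and 8.89 without control replicate 2. The median of the inner root sheath keratins moved from 7.12 to 8.68, and that of the hair shaft keratins from 8.04 to 8.57. The FPKM scale is relative, and keratin-associated proteins alone summed to 43830 to 61670 FPKM of the 476676 to 493935 FPKM of an IMQ + BZLF sample, against 71.5 to 179 FPKM in control samples.

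Regulators of the hair matrix and pigment genes were higher with them. Of 14 hair matrix transcription factors, 11 were higher, where 9.65% of all genes were, with a median of 2.66 and 2.62 in IMQ + NS samples. Foxn1, needed for a normal hair shaft, was at 0.787, 3.64, 1.43 and 1.06 FPKM in control and 69.8, 40.2, 42.9 and 45.4 FPKM in IMQ + BZLF samples, without overlap (difference 4.96, adjusted p = 4.58e-05). Hoxc13, which controls hair keratin genes, was at 1.83, 22.8, 0.904 and 0.752 FPKM in control and 66.7, 46.9, 50.7 and 47.9 FPKM in IMQ + BZLF samples, and control replicate 2 was again the highest control. Melanocyte genes were higher in 9 of 14, where 9.65% of all genes were. Among them Tyr, the first enzyme of melanin synthesis, was at 0.5702, 7.15, 0.05097 and 0.202 FPKM in control and 16.8, 8.59, 10.2 and 8.49 FPKM in IMQ + BZLF samples (difference 3.96, adjusted p = 0.0116).

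Cell division and Sonic hedgehog genes were called or not depending on control replicate 2. Of 40 cell cycle and mitosis genes, 13 were higher with all samples and 36 without control replicate 2, and 1 in each of 5 fits that left out another control or IMQ + BZLF sample, and the list median moved from 1.37 to 2.06. Mki67, which encodes the proliferation antigen Ki67, was at 3.55, 23.7, 2.095 and 2.38 FPKM in control, 21.5, 21.4, 24.7 and 21.5 FPKM in IMQ + NS and 22.6, 18.7, 20.1 and 21.2 FPKM in IMQ + BZLF samples. Control replicate 2 lay above every IMQ + BZLF sample and the other controls far below. The difference was 2.15 (adjusted p = 0.0244, limma) and 2.93 without that control, but it was not called in 6 of the 7 fits that left out another single control or IMQ + BZLF sample. Shh, the ligand that drives growth of the follicle, was at 1.14, 13.1, 0.0357 and 0.0449 FPKM in control and 6.39, 3.65, 5.597 and 4.003 FPKM in IMQ + BZLF samples, with adjusted p = 0.112 with all samples and 0.00127 without control replicate 2. The Sonic hedgehog list had 1 higher gene of 12 with all samples and 7 without that control.

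**Figure D2:**
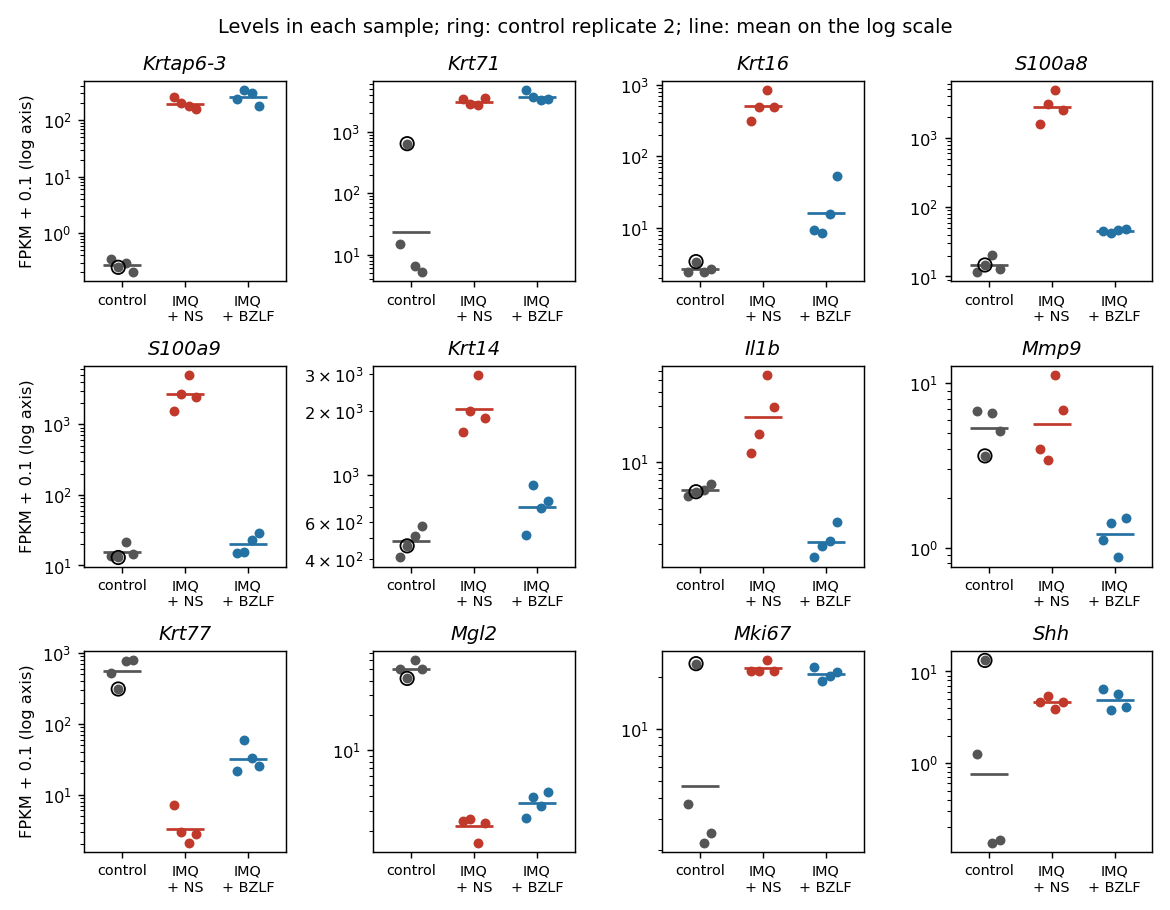
FPKM + 0.1 (vertical log axis) for 12 genes in the 4 samples of each group. Lines are means on the log scale and rings mark control replicate 2, which lies with the lesions for Mki67 and above them for Shh. S100a9 and Krt14 of IMQ + BZLF samples overlap the controls, and Il1b and Mmp9 lie below all of them.

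The medians of the Sprr, Lce3, hyperproliferation keratin and stefin lists lay between untreated lesions and control skin, and those of other barrier lists did not all do so. Of 12 small proline-rich Sprr genes, 8 were still higher than in control samples and 10 were lower than in IMQ + NS samples, and their median difference from control was 2.38 against 7.59 in IMQ + NS samples. All 6 late cornified envelope Lce3 genes were lower than in IMQ + NS samples and 4 were still higher than in control samples, with medians of 3.62 and 7.38. The 4 keratins of hyperproliferative epidermis were all higher than in control samples (median 2.85), and 3 of them were lower than in IMQ + NS samples (median 6.52). Of 11 stefins and cystatins, which inhibit cysteine proteases, 6 were higher and 1 was lower than in control samples, and 8 were lower than in IMQ + NS samples. Of 14 Lce1 genes, 6 were higher and 1 lower than in control samples, with a median of 0.58 against 0.35 in IMQ + NS samples, and the higher ones numbered 3 without IMQ + BZLF replicate 3. Of 11 filaggrin-type genes, loricrin and involucrin, 8 were higher and 1 lower than in control samples, and in the direct test 1 was higher and 1 lower than in IMQ + NS samples. Members of the Sprr2, Lce3 and stefin families are similar in sequence, and their reads may be shared.

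Krt16, a keratin that keratinocytes make when wounded or inflamed, was at 2.35, 3.27, 2.28 and 2.58 FPKM in control, 309, 485, 839 and 486 FPKM in IMQ + NS and 9.35, 8.46, 15.7 and 52.3 FPKM in IMQ + BZLF samples. The 3 groups did not overlap, and IMQ + BZLF replicate 4 was the highest of its group. The difference from control was 2.58 (standard error 0.51, adjusted p = 0.00324) and that from IMQ + NS was -4.95 (adjusted p = 0.00183). Krt6a, a partner of Krt16, was at 8.28, 21.3, 10.6 and 10.04 FPKM in control and 82.8, 129, 84.1 and 122 FPKM in IMQ + BZLF samples, a difference of 3.12 (adjusted p = 9.09e-05). Krt17, which is also made in the follicle, differed from control by 2.04, and no difference from IMQ + NS was called (adjusted p = 0.108).

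Within the Sprr family the members differed. Sprr2h was at 0.1997, 0.1995, 0.136 and 0.308 FPKM in control, 64.3, 85.1, 137 and 83.8 FPKM in IMQ + NS and 23.2, 36.1, 18.5 and 23.6 FPKM in IMQ + BZLF samples, so that the treated lesions stayed 6.34 above control on the log2 scale (adjusted p = 2.83e-07). Sprr2d was at 0.772, 0.771, 0.751 and 1.02 FPKM in control, 226, 459, 722 and 407 FPKM in IMQ + NS and 0.983, 0.573, 6.85 and 6.201 FPKM in IMQ + BZLF samples. IMQ + BZLF replicate 1 lay among the controls, replicate 2 below them and replicates 3 and 4 above them, and no call was made against control (adjusted p = 0.143). Sprr1a, a cornified envelope precursor, was at 88.9, 236, 95.1 and 113 FPKM in control and 1646, 1863, 1420 and 1338 FPKM in IMQ + BZLF samples (difference 3.66), and no difference from IMQ + NS was called (adjusted p = 0.373).

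S100a8 and S100a9 encode the subunits of calprotectin, an antimicrobial protein complex of neutrophils and inflamed keratinocytes, and lie on chromosome 3 with 22595 bases between them. S100a8 was at 11.4, 14.5, 20.4 and 12.7 FPKM in control, 1569, 3053, 4874 and 2544 FPKM in IMQ + NS and 45.01, 42.5, 46.9 and 48.6 FPKM in IMQ + BZLF samples. All IMQ + BZLF values were above all control values, and S100a8 stayed higher by 1.66 (standard error 0.17, adjusted p = 0.000133). S100a9 was at 13.6, 12.9, 21.4 and 14.5, 1537, 2675, 4957 and 2468 and 14.8, 15.7, 23.02 and 28.98 FPKM in the same groups. Its IMQ + BZLF and control values overlapped, and the difference was 0.38 with a 95% interval of -0.18 to 0.93, so S100a9 counted as returned. Whether the 2 differences from control differed from each other was not tested.

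**Figure D3:**
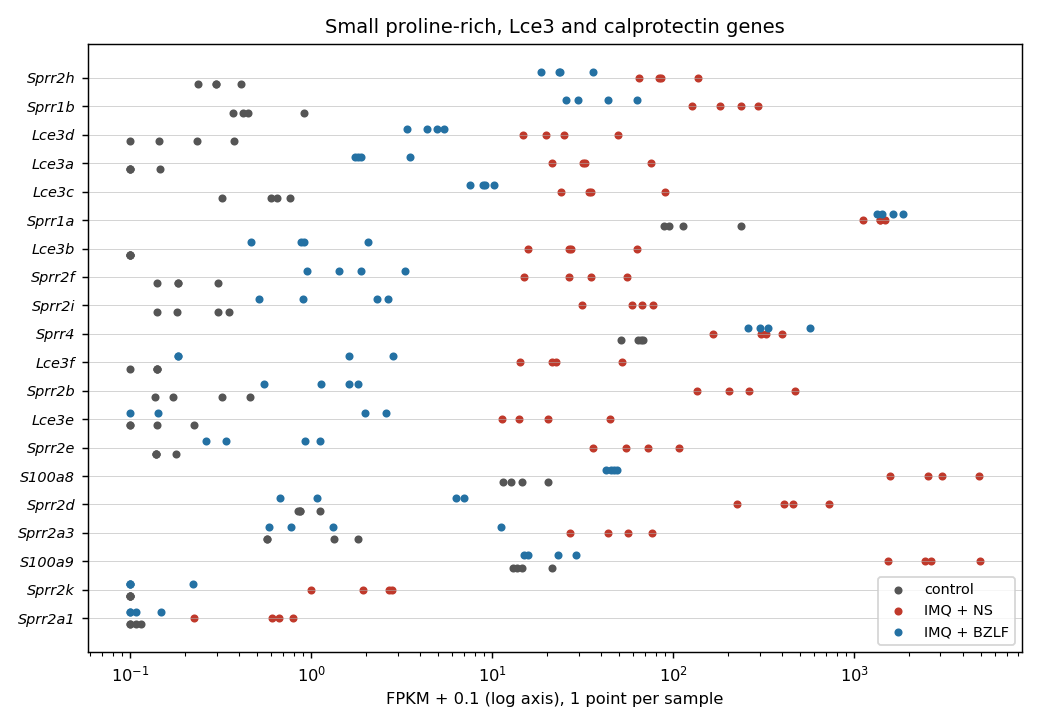
FPKM + 0.1 (horizontal log axis) of the Sprr and Lce3 genes tested and of S100a8 and S100a9, with 1 point per sample and 4 samples per group. Genes are ordered by their IMQ + BZLF minus control difference, from Sprr2a1 at 0.09 to Sprr2h at 6.34. IMQ + BZLF points lie between the other groups for genes such as Sprr2h and Lce3d and with the IMQ + NS points for Sprr1a and Sprr4.

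Both families and the S100 genes lie in the epidermal differentiation complex, taken here as the span from S100a1 to S100a10 on chromosome 3 (chr3:90511034-93564645, GRCm38.p6). Of its 62 tested genes, 41 were raised in IMQ + NS samples, where 11.4% of all genes were, and 8 were lowered. In IMQ + BZLF samples, 32 of the 41 stayed higher, 3 returned (S100a9, Sprr2k and Sprr2a1) and 6 were not decided, while 5 of the 8 lowered genes stayed lower and 1, Lce1l, returned. Sprr2k and Sprr2a1 averaged 0 and 0.0054 FPKM in control and 0.031 and 0.014 FPKM in IMQ + BZLF samples. Counting these 2 as returned rests on the added constant of 0.1. The shares of raised genes that stayed (78%) and returned (7.32%) were near those over all raised genes (76.7% and 5.23%). Without control replicate 2, 30 of 40 raised genes stayed higher and 2 returned. In the direct test 21 genes of the complex were lower and 2, Flg2 and Lce1m, were higher in IMQ + BZLF than IMQ + NS samples. The largest residual increases in the complex were those of Tchhl1 (8.66), Crnn (7.80) and Tchh (7.49), of which trichohyalin (Tchh) is a protein of the inner root sheath. S100a7l2 had the lowest difference of the complex (-6.00), at 7.21, 9.03, 8.04 and 11.1 FPKM in control and 0, 0.178, 0.02896 and 0 FPKM in IMQ + BZLF samples.

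Some genes of normal differentiation stayed low. Krt77, a suprabasal keratin at chr15:101858731-101869706, was at 522, 310.3, 772 and 787 FPKM in control, 6.97, 2.85, 2.002 and 2.68 FPKM in IMQ + NS and 21.7, 58.3, 32.5 and 25.1 FPKM in IMQ + BZLF samples. The 3 groups did not overlap, with a difference from control of -4.13 (standard error 0.37, adjusted p = 7.85e-05) and from IMQ + NS of 3.27 (adjusted p = 0.00354). Flg2, a filaggrin-type protein, stayed lower than control (-1.37, adjusted p = 0.00459), as did Lce1m (-2.27, adjusted p = 0.0014), and both were higher than in IMQ + NS samples. In contrast, filaggrin itself (Flg) was higher than in control by 3.37 and involucrin (Ivl) by 1.93, with IMQ + NS differences of 3.30 and 1.69. Krt1 was called higher than in control (1.17, adjusted p = 0.0293), but not in 5 of 8 fits that left out a control or IMQ + BZLF sample, that without control replicate 2 among them (0.87). Krt10 was not called (-0.26, 95% interval -1.05 to 0.54).

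Outside the epidermis, transcripts of skeletal muscle had the lowest median of the lists. Of 27 contractile genes, 23 were lower (10.1% of all genes were) and 1, Tnni1, was higher, with a median of -2.38 and -2.71 in IMQ + NS samples. Acta1, skeletal muscle actin, was at 3421, 1420, 3303 and 3542 FPKM in control and 577, 509, 484 and 619 FPKM in IMQ + BZLF samples (difference -2.33, adjusted p = 0.000304). Control replicate 2 was the lowest control and still above all treated samples. How much of the muscle layer beneath the skin each sample held was not measured.

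Adipocyte genes were lower in 9 of 19 (median -0.97, and 11 genes without control replicate 2) and peripheral myelin genes in 7 of 12 (median -1.07). Of all genes, 10.1% were lower. Adipoq, the hormone adiponectin of fat cells, was at 609, 244, 311 and 364 FPKM in control and 131, 131, 146 and 143 FPKM in IMQ + BZLF samples, a difference of -1.39 (adjusted p = 0.00167). Of 21 elastic fiber and proteoglycan genes, 7 were lower. The 18 collagen genes had a median near 0 (-0.10), which became 0.04 when samples were rescaled on genes other than hair genes. Of these genes, 1 was higher (3 without control replicate 2) and 3 fibrillar collagens were lower, where 9.65% and 10.1% of all genes were. Among these 3, Col3a1 was not called without control replicate 4 or without IMQ + BZLF replicate 1. Col1a1 was at 4046, 3546, 5226 and 5374 FPKM in control and 1184, 2298, 2126 and 1937 FPKM in IMQ + BZLF samples, with a difference of -1.29 (adjusted p = 0.00173), against -2.10 in IMQ + NS samples. IMQ + BZLF replicate 1 was the lowest of its group.

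MHC class II genes stayed low, as did some genes of dermal macrophages and dendritic cells. Of 9 MHC class II genes, 8 were lower than in control samples, where 10.1% of all genes were. Their median was -1.61 in IMQ + BZLF and -1.67 in IMQ + NS samples. Between the lesions 0 of them differed, by adjusted or by unadjusted p (limma). Over all 15288 genes, 1217 were higher and 2258 lower between the lesions at an unadjusted p under 0.05. Cd74, the invariant chain that carries class II molecules, was at 1193, 799, 1375 and 1217 FPKM in control and 244, 391, 382 and 369 FPKM in IMQ + BZLF samples, without overlap (difference -1.72, adjusted p = 0.000288). Mgl2, a lectin of dermal macrophages and dendritic cells, was at 50.4, 41.7, 59.8 and 50.8 FPKM in control, 2.36, 2.45, 1.49 and 2.24 FPKM in IMQ + NS and 2.495, 3.87, 3.21 and 4.26 FPKM in IMQ + BZLF samples. Its difference from control was -3.85 (standard error 0.18, adjusted p = 1.08e-06). Cd209a, another lectin of such cells, stayed lower with a difference of -2.68 (adjusted p = 0.00013). Of 11 Langerhans and dendritic cell genes, 4 were lower and 1, Epcam, was higher (1.02), where 10.1% and 9.65% of all genes were. Epcam was not called in 3 of the fits that left out a control or IMQ + BZLF sample. The list summed to 94.1, 92.4, 114 and 109 FPKM in control and 77.9, 98.8, 89.8 and 86.8 FPKM in IMQ + BZLF samples, which overlap. Retnla, a marker of alternatively activated macrophages that was chosen after its values were seen, was at 671, 313, 786 and 383 FPKM in control, 14.8, 10.4, 18.9 and 20.6 FPKM in IMQ + NS and 37.9, 57.7, 64.4 and 58.8 FPKM in IMQ + BZLF samples. Its groups did not overlap, and it differed by 1.77 from IMQ + NS (adjusted p = 0.00413) and by -3.22 from control (adjusted p = 9.9e-05).

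Of 20 interferon-stimulated genes, 11 were lower than in control samples (14 without control replicate 2), where 10.1% of all genes were. Their median was -1.18 in IMQ + BZLF and -1.10 in IMQ + NS samples. Usp18, a brake on interferon signalling, was at 14.1, 8.43, 15.2 and 12.3 FPKM in control and 1.35, 2.895, 2.25 and 2.03 FPKM in IMQ + BZLF samples (difference -2.51, adjusted p = 0.000136). Immediate early genes, which respond within minutes to stress or handling of tissue, were lower in 8 of 18, where 10.1% of all genes were. Another 2 were higher, Fosl1 (1.51) and Egr3 (1.01), and Egr3 was not called in 4 of 8 fits that left out a control or IMQ + BZLF sample. Fos was at 97.7, 107, 293 and 314 FPKM in control and 4.14, 3.34, 6.76 and 7.13 FPKM in IMQ + BZLF samples, so that all controls were higher, but control replicates 3 and 4 were well above replicates 1 and 2. The difference was -5.08 (standard error 0.44, adjusted p = 6.13e-05). In Fosb and in Dusp1, a phosphatase gene that responds to stress, control replicates 3 and 4 were again the highest, and the differences were -4.35 and -3.28.

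Further genes with the largest decreases were also lower in untreated lesions. Pon1, an enzyme of lipoproteins, was at 61.2, 12.8, 78.7 and 84.2 FPKM in control and 0.541, 0.656, 0.402 and 1.504 FPKM in IMQ + BZLF samples, with the lowest control value in replicate 2 (difference -5.92, IMQ + NS -6.01). Mrgprb3, a receptor gene, differed from control by -4.42 and F830045P16Rik by -5.16, against -5.69 and -4.99 in IMQ + NS samples. Hamp2, a gene of the hepcidin family, was listed at 0 in all 4 IMQ + NS samples and at 0, 0, 0.116 and 0.447 FPKM in IMQ + BZLF samples, against 1.37, 1.14, 5.44 and 4.42 FPKM in control samples. Ifitm6 was at 68.7, 27.7, 52.8 and 57.9 FPKM in control, 2.99, 6.14, 8.503 and 7.37 FPKM in IMQ + NS and 1.14, 2.07, 2.998 and 1.99 FPKM in IMQ + BZLF samples, and differed in IMQ + BZLF samples from control by -4.59 (adjusted p = 2.3e-05) and from IMQ + NS by -1.54 (adjusted p = 0.0358).

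The neutrophil list had a median and a sum near those of control samples, with members on both sides. Of 26 neutrophil genes, 22 were raised in IMQ + NS samples, and 20 were lower in IMQ + BZLF than IMQ + NS samples. Against control, 4 were higher and 3 lower after BZLF, where 9.65% and 10.1% of all genes were. The list median of 0.15 (IMQ + NS 2.90) became -0.03 under quantile normalization. The summed level of this list was 170.4, 140.5, 173 and 147 FPKM in control and 159, 169.9, 183 and 188 FPKM in IMQ + BZLF samples, against 3250, 5905, 10080 and 5221 FPKM in IMQ + NS samples. Most of the IMQ + NS sums came from S100a8 and S100a9, which averaged 3010 and 2909 FPKM there and which inflamed keratinocytes also make. The difference in the sum between the lesions is therefore mainly that of this pair. Of the 26 genes 5 returned, 4 stayed higher, 2 stayed lower, 1 fell below control and 13 were not decided. The 4 higher genes became 8 without IMQ + BZLF replicate 1. Among those not decided was Cxcr2, the receptor by which neutrophils follow chemokines, at 0.0962, 0.344, 0.369 and 0.396 FPKM in control and 0.314, 0.492, 0.82 and 1.09 FPKM in IMQ + BZLF samples (difference 0.93, 95% interval 0.01 to 1.85).

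Lcn2, lipocalin-2, a protein that binds bacterial siderophores, was at 5.63, 4.69, 4.17 and 4.65 FPKM in control, 60.5, 124, 148 and 86.2 FPKM in IMQ + NS and 4.86, 5.77, 4.93 and 5.58 FPKM in IMQ + BZLF samples. The IMQ + BZLF values overlapped those of control, with a difference of 0.14 (95% interval -0.13 to 0.42). Cxcl5, a chemokine for neutrophils, returned at 0.0933, 0.0157, 0.0306 and 0.0737 FPKM against 0.0756, 0.0151, 0 and 0.124 FPKM in control samples. At values this low, its return rests on the added constant of 0.1. Csf3r, the receptor of the growth factor of neutrophils, was at 2.43, 2.09, 4.36 and 2.66 FPKM in control, 8.76, 11.8, 22.8 and 15.7 FPKM in IMQ + NS and 1.82, 2.802, 2.53 and 3.03 FPKM in IMQ + BZLF samples (difference -0.14, 95% interval -0.70 to 0.41). Siglece and Cd300c2, receptors of myeloid cells, returned with differences of 0.05 and 0.27. Chil3, a protein of activated macrophages, returned with all samples (0.00, 95% interval -0.88 to 0.88) and was not decided without control replicate 2.

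Of 22 alarmins and antimicrobial peptides, 8 were higher than in control samples, against 9.65% of all genes, and 2 were lower, a share near the 10.1% of all genes. Of the 22, 4 returned, and 16 were lower than in IMQ + NS samples, where 2.2% of all genes were. The IL-17 cytokines were at or near 0 outside untreated lesions. Il17a was listed at 0 in all 4 control and all 4 IMQ + BZLF samples, and at 0.574, 0.402, 1.08 and 0.809 FPKM in IMQ + NS samples. Il17f was at 0, 0, 0.0131 and 0.0265 FPKM in control and 0, 0, 0.02603 and 0.0125 FPKM in IMQ + BZLF samples. Counting them as returned rests on the added constant of 0.1, since values this low lie within 2-fold of 0 on that scale. Of the 22 genes of the IL-17 list, 6 returned, 3 stayed higher and 6 were lower than in control samples. The 3 that stayed higher were Il1f6 (2.79), Il1f8 (1.75) and Il1a (1.67), members of the IL-1 family that keratinocytes make. Of these, Il1f6 and Il1f8, which encode IL-36 cytokines, were also lower than in IMQ + NS samples.

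Basal keratins returned within 2-fold. Krt14 was at 405, 459.9, 510.4 and 570.5 FPKM in control, 1590, 2000, 2958 and 1852 FPKM in IMQ + NS and 516, 896, 697 and 748 FPKM in IMQ + BZLF samples. Only IMQ + BZLF replicate 1 lay among the controls, and the difference of 0.54 (95% interval 0.14 to 0.93) was above 0 with adjusted p = 0.0281 (limma). Krt5, its partner in basal cells, was at 539, 697, 663 and 728 FPKM in control and 836, 1100, 926 and 956 FPKM in IMQ + BZLF samples, without overlap, and differed by 0.54 (95% interval 0.27 to 0.81). Returned therefore means within 2-fold and not equal. With a limit of 1.5-fold for the interval, 14 raised and 0 lowered genes counted as returned. Among the lowered genes that returned and were higher than in IMQ + NS samples, Tnmd, tenomodulin of tendon and fascia, was at 56.9, 81.4, 61.8 and 69.6 FPKM in control, 27.5, 23.2, 14.8 and 24.2 FPKM in IMQ + NS and 33.1, 49.1, 45.8 and 59.3 FPKM in IMQ + BZLF samples. Wfdc21, a small secreted protein gene, was at 245, 146, 212 and 188 FPKM in control, 105, 127, 51.5 and 67.6 FPKM in IMQ + NS and 174, 228, 385 and 156 FPKM in IMQ + BZLF samples. IMQ + BZLF and control samples overlapped in both genes.

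Of the genes raised in untreated lesions, 5 were below control after BZLF, namely Il1b, Cxcl2, Ccl3, Retnlg and Mcemp1. Il1b, the inflammatory cytokine IL-1β, was at 5.08, 5.51, 5.66 and 6.44 FPKM in control, 11.98, 17.2, 55.1 and 29.7 FPKM in IMQ + NS and 1.44, 1.82, 2.02 and 3.01 FPKM in IMQ + BZLF samples. Every IMQ + BZLF sample was below every control, and the difference was -1.45 (standard error 0.20, adjusted p = 0.000623). Retnlg, a resistin-like gene of neutrophils, was at 4.16, 4.401, 3.87 and 2.58 FPKM in control and 1.27, 1.07, 1.67 and 1.08 FPKM in IMQ + BZLF samples, a difference of -1.48 (adjusted p = 0.000591). Cxcl2, a neutrophil chemokine, was at 0.139, 0.254, 0.708 and 0.262 FPKM in control and listed at 0 in IMQ + BZLF replicates 1 and 2 and at 0.0234 and 0.0225 FPKM in replicates 3 and 4 (adjusted p = 0.00291).

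Ccl3, a chemokine for monocytes, was at 0.982, 0.601, 1.13 and 0.8805 FPKM in control and 0.0978, 0.264, 0.0321 and 0.433 FPKM in IMQ + BZLF samples (difference -1.88, adjusted p = 0.0059). Mcemp1, a membrane protein of mast cells and myeloid cells, was at 1.26, 1.46, 1.42 and 1.11 FPKM in control and 0.205, 0.4598, 0.806 and 0.668 FPKM in IMQ + BZLF samples (difference -1.26, adjusted p = 0.0102). Cxcl2, Ccl3 and Mcemp1 were not called with a constant of 1 in the logarithm, and Mcemp1 was not called without IMQ + BZLF replicate 1 (-0.95). The count of 5 was 3 without IMQ + NS replicate 3, which had the highest values of all 5 genes, and 7 without IMQ + NS replicate 1.

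A larger group was lower after BZLF without having been called in untreated lesions. Of 422 genes that were called against control in IMQ + BZLF but not in IMQ + NS samples, 140 were higher and 282 lower, and the number was 249 without IMQ + BZLF replicate 1. Of the 282 lower genes, 37 were also lower than in IMQ + NS samples in the direct test, whereas 2 of the 140 higher genes were also higher. Together with the 5 genes above and with Ifitm6 and Gm6377, which were already low in untreated lesions, 44 genes were lower in IMQ + BZLF samples than in both other groups, and 42 of them were still lower than control without control replicate 2. Of the genes of this group named here, Gm6377, Spi1, Fcer1g, Aif1 and Il33 were chosen after their values were seen.

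Mmp9, a matrix metalloproteinase of neutrophils and macrophages, was at 6.68, 3.52, 6.52 and 5.03 FPKM in control, 3.87, 3.32, 11.1 and 6.83 FPKM in IMQ + NS and 1.02, 1.32, 0.7701 and 1.41 FPKM in IMQ + BZLF samples. Control and IMQ + NS samples overlapped, and every IMQ + BZLF sample was below both. The difference was -2.16 from control (standard error 0.25, adjusted p = 0.000263) and -2.25 from IMQ + NS (adjusted p = 0.00952). Tnf, the cytokine TNF, was at 1.95, 1.48, 2.57 and 3.397 FPKM in control, 1.49, 1.202, 2.26 and 1.704 FPKM in IMQ + NS and 0.156, 0.331, 0.674 and 0.384 FPKM in IMQ + BZLF samples, a difference of -2.38 from control (adjusted p = 0.000878). Slfn1, a Schlafen gene of lymphocytes and myeloid cells, differed from control by -1.95 (adjusted p = 0.00249).

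Spi1, Fcer1g and Aif1, which act in myeloid cells, were among the 44 genes. Spi1, the transcription factor PU.1 of the myeloid lineage, was at 33.7, 30.4, 32.4 and 26.6 FPKM in control, 21.8, 28.4, 37.9 and 31.6 FPKM in IMQ + NS and 9.23, 15.7, 16.3 and 14.99 FPKM in IMQ + BZLF samples (difference from control -1.16, adjusted p = 0.00102). Fcer1g, a signalling chain of Fc receptors, differed from control by -1.20 and Aif1, a macrophage protein, by -1.03. Il33, an alarmin of keratinocytes and stromal cells, was at 13.2, 7.398, 9.66 and 7.78 FPKM in control and 1.91, 2.51, 2.51 and 5.64 FPKM in IMQ + BZLF samples (difference -1.65, adjusted p = 0.00301). Cxcl1 was also among them (-1.15, adjusted p = 0.0401), but was not called in 5 of 8 fits that left out a control or IMQ + BZLF sample. Of 13 macrophage genes 4 were lower and 1, Arg1, was higher than in control samples, against 10.1% and 9.65% of all genes. Of 12 T cell genes 4 were lower, where 10.1% of all genes were, among them Cd3e (-1.24) and Ctla4 (-1.40). Another T cell gene, Cd163l1, was higher (1.20), but was not called in 5 of 8 fits that left out a control or IMQ + BZLF sample. The lower macrophage genes numbered 1 without IMQ + BZLF replicate 1 and 7 without IMQ + BZLF replicate 4, and the lower T cell genes numbered 2 without control replicate 3 or without IMQ + BZLF replicate 1. IMQ + BZLF replicate 1 was the lowest of its group for Spi1, Fcer1g and Aif1 and for the summed T cell and macrophage lists (8.66, 17.9, 16.6 and 12.8 and 807, 1225, 1229 and 1115 FPKM).

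Genes that were higher in IMQ + BZLF samples than in both other groups numbered 5. Tm6sf2, a membrane protein of lipid metabolism, was at 0.277, 0.0865, 0.0177 and 0.445 FPKM in control, 1.204, 0.759, 0.8598 and 1.05 FPKM in IMQ + NS and 2.12, 2.38, 1.68 and 2.16 FPKM in IMQ + BZLF samples, a difference of 3.06 from control (adjusted p = 0.000688) and 1.04 from IMQ + NS (adjusted p = 0.00881). The other 4 were low, and all but Mup20 were named after their values were seen. The genes 2310079G19Rik, Csn3 and Scgb1b27 were listed at 0 in all controls and averaged at most 1.34 FPKM in IMQ + BZLF samples, and Mup20, of a family of near-identical genes, averaged 0.752 FPKM.

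**Figure D4:**
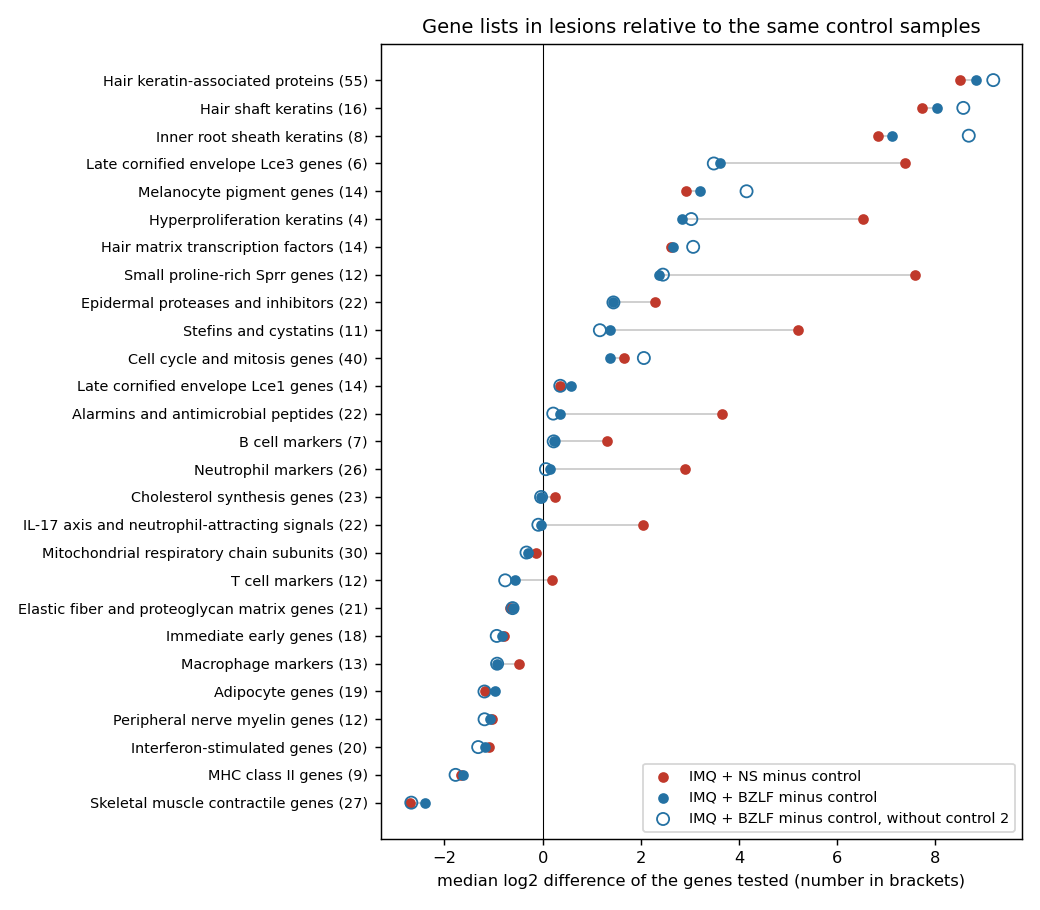
Median log2 difference from control (horizontal axis) of 27 gene lists in IMQ + NS samples (red), in IMQ + BZLF samples (blue) and in IMQ + BZLF samples without control replicate 2 (open circles), with the number of genes tested in brackets. Both lesions share the control samples. The medians of the neutrophil, alarmin and IL-17 lists, whose members lie on both sides, are near 0 in IMQ + BZLF samples, those of the Sprr, Lce3 and hyperproliferation keratin lists lie between, and those of hair, muscle and MHC class II lists lie close to their IMQ + NS values.

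Some lists held few or 0 called genes. At an unadjusted p under 0.05 (limma), 4195 of all 15288 genes were higher and 4918 lower in IMQ + BZLF than control samples. Of 30 mitochondrial respiratory chain genes, 0 were called in IMQ + BZLF against control samples (limma), although 19 were lower at an unadjusted p under 0.05, and their median was -0.30. Of 23 cholesterol synthesis genes 0 were called with all samples (limma) and 1 without control replicate 2. At an unadjusted p under 0.05, 5 were higher and 7 lower, shares near those of all genes. Their median of -0.02 became 0.11 when samples were rescaled on genes other than hair genes. Of 17 circadian clock genes 1, Nfil3 (1.28), was higher and 1, Npas2 (-1.97), was lower.

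Over all genes, IMQ + BZLF and control values did not overlap for 7262 (47.5%), with 2971 (19.4%) higher and 4291 (28.1%) lower. Of the 1335 genes that stayed higher 1180 did not overlap, and of the 1255 that stayed lower 1203 did not, shares that the calls themselves favour. Of the 91 raised genes that returned, 15 did not overlap.

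**Figure D5:**
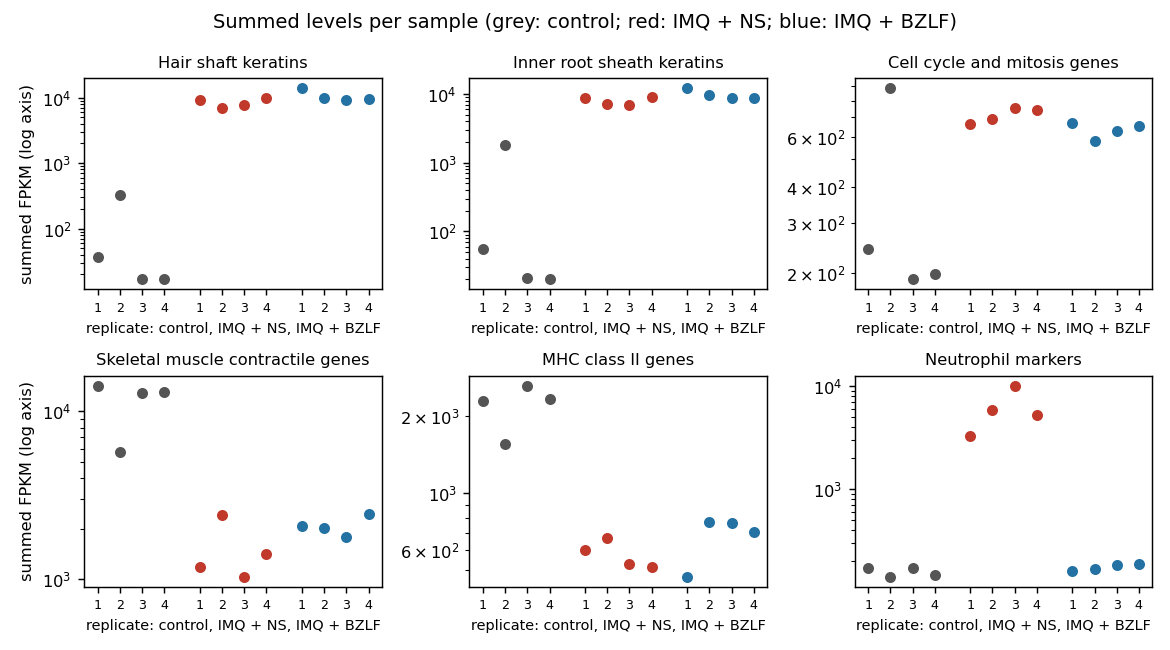
Summed FPKM (vertical log axis) of 6 gene lists in each of the 12 samples, in the order control, IMQ + NS and IMQ + BZLF replicates 1 to 4. Control replicate 2 has the highest hair shaft, inner root sheath and cell cycle sums and the lowest muscle and MHC class II sums of the controls, and the neutrophil sums of IMQ + BZLF samples (159 to 188 FPKM) lie next to those of control samples (140.5 to 173 FPKM). The neutrophil sums of IMQ + NS samples are mostly S100a8 and S100a9.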

How the data were processed

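RNA-seq values of 12 back skin samples were used, 4 per group. The authors deposited FPKM values, 1 per gene and sample, not on a log scale and not pooled. The study's methods name Bowtie2 alignment to mRNA and lncRNA transcripts, eXpress for FPKM and counts, and DESeq2 on the counts, whereas the submitters' processing notes name fastp, HISAT2, HTSeq, R 3.2.0 and the build mm10. The methods describe mirVana extraction and a stranded library with ribosomal RNA removal, and the sample labels TRIzol and a VAHTS kit. Counts were not used here. Of 23381 low values, 26.1% lay within 0.05 of a whole multiple, so reads were not recovered and the depth of a value is unknown. FPKM sums ranged from 444660 to 506622. Every column belonged to a sample, and 0 gene symbols were duplicated.

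Models were fitted with limma 3.58.1 in R 4.3.3 (trend on expression, moderated variances, Benjamini-Hochberg adjustment), with Python 3.11.15, pandas 2.3.3 and matplotlib 3.10.9 for tables and plots, on log2(FPKM + 0.1) of genes that averaged 0.1 FPKM or more, in separate fits for each pair of groups. A call needed an adjusted p below 0.05 and a log2 difference over 1. P-values measure only the spread between these samples, which may be partly technical. The fits were tested on simulated data, with the spread of the lesion groups, control means without control replicate 2 and changes well above the fold limit. The wider spread of the real controls was not simulated, so that test does not show how the fits perform with it. Named genes were the 10 largest higher and lower differences (mean FPKM of at least 1, no overlap, called also without control replicate 2), up to 8 returned genes in each direction that were also called between the lesions, all genes past control, up to 5 in each direction that differed from both groups, and members of the gene lists. The members and lists were chosen with earlier results of these data known. Replicate numbers were not used as pairs: deviations of same-numbered control and IMQ + BZLF samples correlated at -0.0669, -0.0766, 0.176 and 0.157. Positions and promoters were looked up by symbol in RefSeq on GRCm38.p6, since the deposited values carry no coordinates, and 15243 of the tested symbols had a position and 12074 a promoter. Alternatives covered the constant, the filter, 4 scalings, the variance model, the thresholds, a replicate block and leaving out each sample.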

Additional observations from a re-analysis of the deposited data

Results flagged for a closer look

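In 258 groups of 4 samples, the values of the named genes and the summed lists were searched for a sample far from the other 3, by Dixon's 95% critical value, which chance alone exceeds in about 1 in 20 groups. Control replicate 2 was the lowest control for Pon1, at 12.8 FPKM against 61.2 to 84.2 FPKM, and for F830045P16Rik, at 2.355 FPKM against 4.23 to 4.545 FPKM. Its skeletal muscle genes summed to 5765 FPKM against 12820 to 14230 FPKM. It was the highest control for hair matrix transcription factors, at 237.1 FPKM against 49.66 to 51.06 FPKM, for the Sonic hedgehog pathway, at 204.2 FPKM against 109.8 to 114.5 FPKM, and for cell cycle genes, at 886.3 FPKM against 190.5 to 242.3 FPKM.

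IMQ + BZLF replicate 1 was the lowest of its group for Cd300c2 (2.555 FPKM against 4.951 to 5.484 FPKM), Slfn1 (0.1905 FPKM against 0.6024 to 0.6599 FPKM), elastic fiber and proteoglycan genes (1411 FPKM against 2399 to 2587 FPKM) and matrix metalloproteinases and TIMPs (430.4 FPKM against 647.6 to 659.7 FPKM). It was the highest for melanocyte genes, at 750.7 FPKM against 378.3 to 395.7 FPKM. IMQ + BZLF replicate 3 was the highest of its group for Fosb, at 1.859 FPKM against 0.5172 to 0.6276 FPKM.

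Among IMQ + NS samples, replicate 3 was the lowest for Krtap9-5 (46.58 FPKM against 97.13 to 113 FPKM) and the highest for Cd300c2 (19.43 FPKM against 13.91 to 14.53 FPKM) and S100a7l2 (0.1137 FPKM, with the others listed at 0). Replicate 2 held the only value above 0 for Mrgprb3 in that group (0.02784 FPKM), and replicate 1 the highest sum of barrier lipid genes (683.6 FPKM against 566.3 to 583 FPKM). Pancreas transcripts summed to 22.1 FPKM in control replicate 4, against 221 to 243.8 FPKM in the other controls, and to 20.75 FPKM in IMQ + BZLF replicate 4, against 210.6 to 236.5 FPKM. Liver transcripts summed to 9.295 FPKM in control replicate 1 and to 2.934 to 3.019 FPKM in the other controls. Krtap9-5 was at 0.068 FPKM in control replicate 3 and at 0.04434 to 0.04568 FPKM in the other controls.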

How the results depend on the processing

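Of 236 counts recomputed under alternatives, 209 stayed within 1.5 times the value reported, and of 936 values of the genes named for the size or class of their change, other list members apart, 932 kept their direction and their side of the threshold. The 4 exceptions were Ccl3 (-0.66), Cxcl2 (-0.39) and Mcemp1 (-0.61) with a constant of 1, and Mcemp1 (-0.95) without IMQ + BZLF replicate 1. Of 1034 list medians, 1007 moved by less than the limit set for them, and the cause of the other moves was not tested. Leaving out an IMQ + NS sample could not change the gene values, the list medians or the counts of higher and lower genes. The fits behind those values hold no IMQ + NS sample, so these settings add nothing on stability. The genes with the largest differences had also been chosen for keeping their call without control replicate 2.

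With a constant of 1 in place of 0.1, 979 genes were higher and 865 lower, 887 stayed higher and 767 stayed lower, 20 lowered genes returned, 2 raised genes were below control and 188 genes were called against control in IMQ + BZLF samples alone. Without a fold limit, the counts were 3640 higher and 4458 lower, 3312 and 3649 that stayed, 809 raised and 332 lowered genes that returned, 41 raised genes below control and 1096 called in IMQ + BZLF samples alone. With a mean FPKM of at least 1, 54 raised genes returned and 271 genes were called in IMQ + BZLF samples alone, since fewer genes were tested. With the interval held to 1.5-fold, 14 raised and 0 lowered genes returned.

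Scaling moved all genes together. The median difference of -0.02 became -0.12 with equal FPKM sums and 0.11 with equal sums without hair genes, an alternative chosen after seeing the data, under which 58 lowered genes returned. The share of calls that were higher was 48.9% as reported, and 40.9% and 58.3% under these scalings.

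Leaving out 1 sample at a time gave 1267 to 1939 higher and 1279 to 1811 lower genes, 1122 to 1770 that stayed higher, 1128 to 1495 that stayed lower, 75 to 110 raised and 15 to 67 lowered genes that returned, 3 to 7 raised genes below control, 0 lowered genes above control, and 249 to 550 genes called in IMQ + BZLF samples alone, the last without IMQ + NS replicate 4. Without control replicate 2 and IMQ + BZLF replicate 2 together, chosen after seeing the data, 1970 genes were higher, 1878 were lower and 555 were called in IMQ + BZLF samples alone.

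Same-numbered control and IMQ + BZLF samples had like levels of pancreas transcripts (22.1 and 20.75 FPKM in replicate 4, over 200 FPKM in the others) and seminal vesicle transcripts (44.6 and 43.0 FPKM in replicate 2, at most 2.61 FPKM in the others). Pancreas transcripts of IMQ + NS samples were also lowest in replicate 4 (51.9, 61.2, 262 and 2.10 FPKM in replicates 1 to 4). Deviations of same-numbered control and IMQ + BZLF samples over all genes did not all correlate above 0.1, so they were not treated as pairs. Those of same-numbered IMQ + NS and IMQ + BZLF samples correlated at 0.0943, -0.0254, 0.174 and 0.26. Whether samples of the same number shared a batch was not tested. With the number as a replicate block, 1457 genes were higher and 1527 lower, 1312 and 1247 stayed, 89 and 43 returned, 5 fell below control, 0 rose above it and 420 were called in IMQ + BZLF samples alone.

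The depth behind a value is unknown, so low FPKM values carry no counting interval.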

Other observations

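Growth factor genes also differed from normal skin. Of 11 genes of the EGF receptor family and its ligands, 5 were higher and 2 were lower in IMQ + BZLF than control samples, against 9.65% and 10.1% of all genes. Tgfa, a ligand made by keratinocytes, was at 2.298, 5.09, 2.43 and 2.73 FPKM in control and 27.1, 29.2, 21.2 and 22.2 FPKM in IMQ + BZLF samples (difference 3.01, adjusted p = 4.05e-05), and Areg and Ereg differed by 2.40 and 1.31. Egf and Btc, other ligands of the receptor, were lower (-1.47 and -1.67). Of 30 Wnt ligands, receptors and inhibitors, 11 were higher (14 without control replicate 2) and 3 lower, the latter a share near that of all genes (10.1%). Wnt11, a ligand, was at 2.998, 12.7, 2.25 and 2.25 FPKM in control and 37.5, 22.9, 25.6 and 25.9 FPKM in IMQ + BZLF samples (difference 2.84, adjusted p = 0.00194). The lower genes were the inhibitors Sfrp2 and Sfrp4 (-1.94 and -2.69) and a ligand, Wnt7b (-1.50). Other inhibitors, Nkd2 and Notum, were among the higher genes (1.43 and 1.025), so ligands and inhibitors lay on both sides.

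Of 18 NRF2 antioxidant genes, 5 were higher and 1 lower, against 9.65% and 10.1% of all genes. Slc7a11, the cystine transporter, was at 0.05896, 0.209, 0.0794 and 0.0607 FPKM in control, 4.89, 5.39, 9.44 and 6.21 FPKM in IMQ + NS and 4.71, 2.82, 2.91 and 4.07 FPKM in IMQ + BZLF samples (difference 4.23, adjusted p = 9.49e-06). Of 22 sebaceous gland genes, 3 were higher, a share near that of all genes, and 6 were lower (8 without control replicate 2), among them Scd3, a fatty acid desaturase, and Awat2, a wax synthase (-2.39 and -2.13). Of 18 vessel genes 5 were lower, and 3 without control replicate 1 or without IMQ + BZLF replicate 1, including Lyve1 and Prox1 of lymphatic vessels (-1.76 and -1.46). Of 19 glycolysis genes 5 were lower, of which Pfkm, Pgam2 and Eno3 are forms of skeletal muscle (-2.49, -2.72 and -2.49). Each gene named here other than Notum kept its call when any single control or IMQ + BZLF sample was left out.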
